A study of Homo sapiens with 33 samples.

Results

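The 8 members of the E2F family of transcription factors, E2F1 to E2F8, were followed by RNA sequencing in 6 human mesothelial lines treated with palbociclib, an inhibitor of the cyclin-dependent kinases CDK4 and CDK6. They were taken by symbol, 1 row for each, from a matrix of 58302 genes, and all 8 were among the 17803 genes that reached 100 CP20M (counts per 20000000 reads) in at least 1 of the 33 libraries. H2052, H2452, H28 and MSTO-211H are malignant pleural mesothelioma lines that the study classed as sensitive to the drug. MPP89 is a mesothelioma line with a mutated RB1 gene, and MeT-5A is a line of normal mesothelial cells immortalized with SV40, whose large T antigen binds the retinoblastoma protein pRb; both were classed as resistant. Cells received 0.1% DMSO, the vehicle, or 1 µM palbociclib for 9 or 10 days, and in 1 experiment of each sensitive line the drug was then washed out and the cells were kept in plain medium for 48 hours. H2052 and MPP89 had 2 DMSO and 2 palbociclib libraries, H2452, H28 and MSTO-211H had 3 of each, and MeT-5A had 1 of each and 1 untreated library. The 4 washout libraries came from the 10-day experiments, H2052 replicate 2 and replicate 3 of the other sensitive lines. The DMSO and palbociclib libraries of these experiments were taken at 10 days, and all other experiments ran for 9 days. Every library was made from a cultured line, so replicates were repeat experiments on 1 line. In fits of a single line, p-values measured the spread between these experiments. Where 1 treatment effect was fitted over several lines, differences in response between lines were part of the spread as well. In the washout fits each line gave 1 experiment, so the spread was that between lines.

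E2F proteins bind DNA at promoters of genes needed for S phase. E2F1, E2F2 and E2F3 are the classical activators, which pRb holds inactive until CDK4, CDK6 and CDK2 phosphorylate it. E2F4 and E2F5 work mainly as repressors together with the pocket proteins p107 and p130, and E2F4 is part of the DREAM complex of resting cells. E2F6 lacks the pocket protein binding region and represses within a Polycomb complex, PRC1.6. E2F7 and E2F8 are atypical members that bind DNA without a DP partner and repress E2F targets late in S phase. Several E2F genes, E2F1 among them, are themselves targets of E2F.

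Promoter letters are shown for 5 starts, chosen because their genes differed in the response described below: E2F1, E2F2 and E2F7 were lower with palbociclib in the sensitive lines, whereas E2F3 and E2F4 were not called. Each run is the 250 bases before the annotated start, 5′ to 3′ on the gene's strand, from the RefSeq promoter table of build GRCh38.p14, in which 6 of the 8 members had an entry. Capitals mark any of 8 E2F words (TTTCCCGC, TTTCCCGG, TTTCGCGC, TTTCGCGG, TTTGCCGC, TTTGCCGG, TTTGGCGC and TTTGGCGG), read on both strands. The E2F1 run lies on the minus strand at chr20:33686386-33686635, that of E2F2 on the minus strand at chr1:23531234-23531483, and that of E2F3 (the upstream of its 2 starts) on the plus strand at chr6:20401629-20401878. The run of E2F7 lies on the minus strand at chr12:77065570-77065819, and that of E2F4 on the plus strand at chr16:67191905-67192154.
E2F1: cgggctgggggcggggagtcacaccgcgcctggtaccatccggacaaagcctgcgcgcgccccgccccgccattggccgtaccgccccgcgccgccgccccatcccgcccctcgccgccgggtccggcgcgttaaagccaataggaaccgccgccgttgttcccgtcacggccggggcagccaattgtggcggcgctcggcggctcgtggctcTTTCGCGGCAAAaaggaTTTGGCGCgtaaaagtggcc
E2F2: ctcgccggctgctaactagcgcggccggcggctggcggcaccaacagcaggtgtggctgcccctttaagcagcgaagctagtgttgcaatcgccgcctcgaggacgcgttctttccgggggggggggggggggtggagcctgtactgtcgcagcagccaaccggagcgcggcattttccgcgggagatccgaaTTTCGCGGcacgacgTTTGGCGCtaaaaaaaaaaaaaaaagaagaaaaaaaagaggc
E2F3: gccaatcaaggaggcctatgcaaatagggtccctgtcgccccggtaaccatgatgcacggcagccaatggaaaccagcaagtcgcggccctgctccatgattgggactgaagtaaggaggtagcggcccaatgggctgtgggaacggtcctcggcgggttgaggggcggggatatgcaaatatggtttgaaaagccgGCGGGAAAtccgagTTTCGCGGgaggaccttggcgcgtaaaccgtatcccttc
E2F7: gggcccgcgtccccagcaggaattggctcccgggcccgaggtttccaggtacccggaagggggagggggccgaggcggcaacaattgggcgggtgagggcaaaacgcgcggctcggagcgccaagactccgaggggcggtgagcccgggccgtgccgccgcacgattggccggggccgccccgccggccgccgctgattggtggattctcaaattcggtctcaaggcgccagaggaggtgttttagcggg
E2F4: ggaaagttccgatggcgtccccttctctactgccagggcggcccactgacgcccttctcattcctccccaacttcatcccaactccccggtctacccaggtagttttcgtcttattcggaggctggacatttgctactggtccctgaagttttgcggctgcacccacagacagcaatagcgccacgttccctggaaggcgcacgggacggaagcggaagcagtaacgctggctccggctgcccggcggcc
The E2F1 promoter held 3 words, of which 2 overlap in a single capital run (TTTCGCGG and, on the other strand, TTTGCCGC) and the third is TTTGGCGC. The promoter of E2F2 held 2 words, TTTCGCGG and TTTGGCGC, and that of E2F3 also held 2, TTTCCCGC on the other strand and TTTCGCGG. E2F6 held 2 words in its window, and neither E2F4, E2F7 nor the downstream start of E2F3 held any. Among all 35116 promoter windows of this length, 5.23% held at least 1 of the words. These matches are letters only and say nothing of binding.

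By the GRCh38 annotation (GENCODE 44), E2F1 (ENSG00000101412) spans chr20:33675477-33686385, E2F2 (ENSG00000007968) chr1:23506438-23531233, E2F6 (ENSG00000169016) chr2:11444375-11466177, E2F7 (ENSG00000165891) chr12:77021248-77065569 and E2F8 (ENSG00000129173) chr11:19224063-19241620, all on the minus strand. On the plus strand lie E2F3 (ENSG00000112242) at chr6:20401879-20493714, E2F4 (ENSG00000205250) at chr16:67192155-67198918 and E2F5 (ENSG00000133740) at chr8:85177154-85217158. The matrix gives 1 value per gene over its exons, so the 2 starts of E2F3 cannot be told apart in it. E2F5 shares 997 exon bases, 16.6% of its exons, with C8orf59 on the opposite strand, and 133 bases with an antisense RNA. The libraries were made with a directional kit, but the strand setting of the counting is not given in the sources used here, and without strand the reads of E2F5 and C8orf59 cannot be told apart in the shared bases. Processed pseudogenes of E2F3, E2F4 and E2F6 had at most 13 CP20M in any library.

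The mesothelial marker genes varied widely. Summed, 8 of them stood at 353 to 8074 CP20M in DMSO libraries of the sensitive lines and at 870 to 5081 in those of the resistant lines. Mesothelin (MSLN) was at 1 to 9 CP20M and CALB2 at 0 to 2 in H28 control libraries, and WT1 at 0 to 2 in those of MeT-5A. These defining markers were thus at or near 0 there, but over all libraries MSLN reached 6853 CP20M, CALB2 1577 and WT1 591. The leukocyte marker PTPRC reached at most 42 CP20M, the endothelial marker PECAM1 120 and EPCAM 88 in any library. RB1 mRNA stood at 177 to 226 CP20M in the control libraries of MPP89 and at 553 to 3808 in those of the other lines. MKI67, the gene of the proliferation marker Ki-67, ranged over the sensitive lines from 1555 to 11301 CP20M in DMSO, from 171 to 2496 with palbociclib and from 3093 to 8328 after washout, and over the resistant lines from 8453 to 11573 in DMSO and from 9100 to 12821 with palbociclib. In these bulk libraries, fewer cycling cells and less RNA per cell cannot be told apart.

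Before treatment, the activators E2F1 and E2F2 differed most between lines and the repressors E2F4 to E2F6 least. E2F1 stood at 4599 and 5741 CP20M in MeT-5A (DMSO and untreated), 1137 and 1462 in MPP89, 721 and 1591 in H2052, 952 to 1330 in H28, 607 to 903 in H2452 and 125 to 495 in MSTO-211H. The mean of the highest line was 17.2 times that of the lowest. MeT-5A stood clear of all others and MSTO-211H lay below all others, whereas MPP89, H2052 and H28 overlapped. E2F2 had the same lines at the ends and H2452, H28 and H2052 in the reverse order between them, from 1326 and 1355 CP20M in MeT-5A through 409 and 411 in MPP89, 333 to 396 in H2452, 308 to 404 in H28 and 91 and 215 in H2052 to 37 to 103 in MSTO-211H, a ratio of 17.3. All 4 control libraries of the resistant lines, at 409 or more, lay above all 11 of the sensitive lines, at 404 or less. The share of all genes separated in this way was not counted. Over lines as units, however, the E2F2 difference was 1.91 on the log2 scale. It had p = 0.133 in the exact two-sided permutation test over 15 choices of 2 of 6 lines (0.533 adjusted over the 8 members). The difference of E2F1, 1.86, had the same p. No member reached 0.0667, the smallest p this design allows.

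E2F3, the third activator, was highest in H28 (1307 to 1588 CP20M) and lowest in H2052 (264 and 428), a ratio of line means of 4.25, and H28 overlapped MPP89 while MeT-5A overlapped H2452. E2F4 was 2554 to 3155 CP20M in MSTO-211H, above all other lines, 1544 and 1660 in H2052, and 978 to 1074 in H28, the lowest, with MPP89, MeT-5A and H2452 between them (2.81-fold from lowest to highest). E2F5 ranged from 211 to 249 CP20M in H2452, below all other lines, to 631 and 806 in H2052 (3.07-fold), where H2052, MPP89, MSTO-211H and H28 followed each other with overlap. E2F6 varied least, from 244 and 267 CP20M in MPP89 to 417 and 484 in MeT-5A (1.76-fold), and apart from MeT-5A each line overlapped its neighbour in the order. Among the atypical repressors, E2F7 was highest in H2052 (1949 and 2829 CP20M) and lowest in H28 (535 to 762), a ratio of 3.54, and below H2052 every line overlapped the next. E2F8 was highest in MeT-5A (666 and 677 CP20M) and lowest in MSTO-211H (45 to 122), a ratio of 8.09, and again only MeT-5A stood clear of its neighbour. All 8 members differed among lines in the F test over the 14 DMSO libraries, with adjusted p from 1.20e-06 (E2F4) to 0.00788 (E2F6), but 95.6% of all genes tested did.

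**Figure D1:**
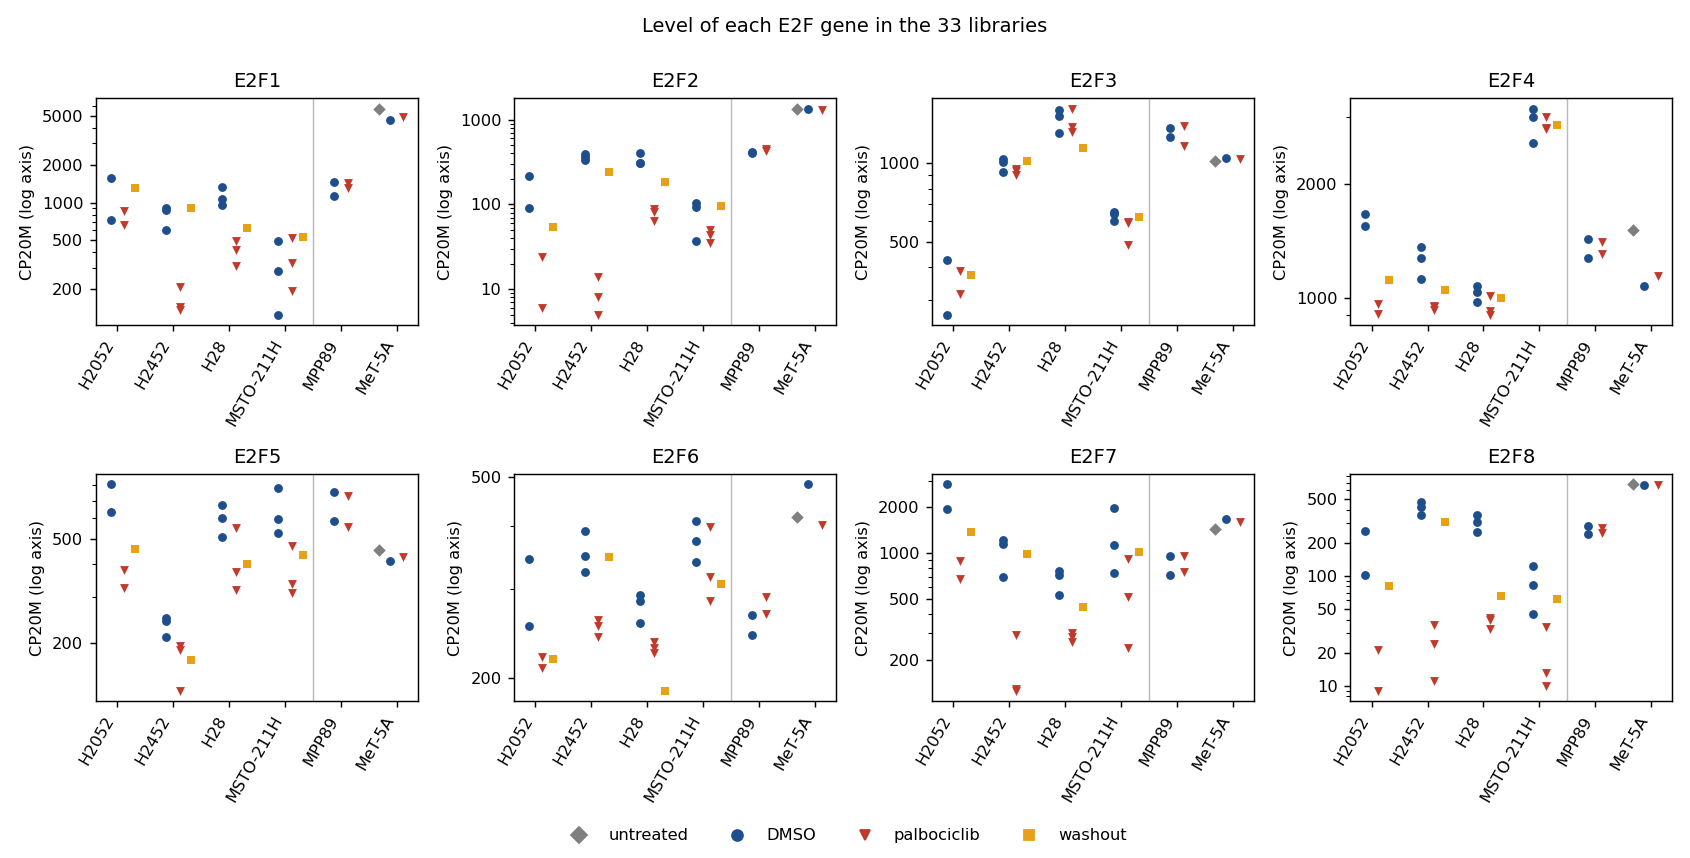
Level of each E2F gene in CP20M (log axis, scale set for each gene) in the libraries of the 6 lines, with treatment by marker and each point 1 library. The grey line separates the 4 sensitive lines from the 2 resistant ones; E2F8 is at 9 to 41 CP20M in palbociclib libraries of the sensitive lines and at 240 or more in all libraries of the resistant lines.

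The plot of levels by library shows these orders together with the treated libraries. To set different genes side by side, levels were divided by the kilobases of all annotated exons of the gene. This length can exceed that of the transcripts present: E2F5 has 5999 exon bases over 8 transcripts and E2F1 2690 over 1. The shares are therefore approximate. E2F1 and E2F4 had the highest levels in DMSO, with medians over 14 libraries of 25.7% and 25.2% of the summed per-kilobase level of the family. E2F3 had a median share of 14.2% and E2F7 of 9.85%, and E2F5 (5.79%), E2F6 (5.33%), E2F8 (4.63%) and E2F2 (4.44%) had the lowest. The share of E2F4 varied with the line, from 9.76% to 57.7%, and that of E2F1 from 3.75% to 55.6%.

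With palbociclib, 5 of the 8 members were lower in the sensitive lines, 2 activators, 1 pocket protein partner and both atypical repressors, and none was higher. A gene was called when it changed more than 1.5-fold with an FDR under 0.05 in limma, with each DMSO and palbociclib library paired by experiment. Over all genes tested, 9.37% were called lower and 5.58% higher, 1669 and 994 genes. With median-of-ratios scaling this split became 919 lower and 1754 higher, and with upper-quartile scaling 979 and 1661, as the median of all genes moved from -0.11 to 0.06 and to 0.04. Log2 fold changes below are of CP20M + 10, which understates the change of low genes.

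E2F2 fell most among the activators. Its DMSO libraries in the sensitive lines ran from 37 to 404 CP20M (median 308) and its palbociclib libraries from 5 to 89 (median 35), so the ranges overlapped, but only through the lowest DMSO library, MSTO-211H replicate 2. In H2452 it went from 366 to 8, from 333 to 14 and from 396 to 5 CP20M in the 3 experiments. The fitted log2 fold change was -2.39 ± 0.40 (SE, 11 pairs; adjusted p = 0.000321), lower in 10 of 11 pairs, and the exception was MSTO-211H replicate 2 (37 to 50).

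E2F1 ran from 125 to 1591 CP20M in DMSO (median 870) and from 136 to 853 with palbociclib (median 327), with wide overlap. It fell by 1.02 on the log2 scale (SE 0.30, 95% interval -1.65 to -0.38; adjusted p = 0.0123) and was lower in 9 of 11 pairs. This call rested on H2452 and H28: without H2452 the change was -0.56 (adjusted p = 0.129) and without H28 it was -0.85 (0.0992). With the means of the 4 lines as units it was -0.97 (0.126). In the 9-day pairs alone it was -0.88 (0.106) and in the 10-day pairs alone -1.26 (0.0746). E2F3 stood at 264 to 1588 CP20M in DMSO (median 921) and at 318 to 1615 with palbociclib (median 899). Its change of -0.07 (95% interval -0.19 to 0.05; adjusted p = 0.301) became 0.12 with median-of-ratios scaling and 0.10 with upper-quartile scaling.

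Of the pocket protein partners, E2F4 ran from 978 to 3155 CP20M in DMSO (median 1359) and from 904 to 2993 with palbociclib (median 951). Its change of -0.29 ± 0.09 (adjusted p = 0.0171) was below the fold threshold, although it was lower in 10 of 11 pairs. Over 26 alternative limma analyses this change ran from -0.39 to -0.09 (adjusted p up to 0.689). The median over all genes was -0.11 in the main fit, and the share of all genes lower in as many pairs was not counted. E2F5 ran from 211 to 806 CP20M in DMSO (median 596) and from 132 to 550 with palbociclib (median 324), and was lower in 11 of 11 pairs. It fell by 0.65 (SE 0.10; adjusted p = 0.000150), a change close to the fold threshold: it was not called with median-of-ratios (-0.46) or upper-quartile scaling (-0.49), without H2052 (-0.58), or in the 9-day pairs alone (-0.48, against -0.96 in the 10-day pairs). C8orf59, the antisense neighbour whose reads may be shared, fell alike, by 0.69 (SE 0.10; adjusted p = 0.000134), from 207 to 898 CP20M in DMSO to 133 to 453 with palbociclib. E2F6 ran from 254 to 409 CP20M (median 340) and from 210 to 399 (median 241), a change of -0.33 ± 0.08 (adjusted p = 0.00308) under the fold threshold and lower in 10 of 11 pairs. Over the 26 alternatives the change of E2F6 ran from -0.39 to -0.14 (adjusted p up to 0.132).

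The atypical repressors fell in each of the 11 pairs. E2F7 ran from 535 to 2829 CP20M in DMSO (median 1138) and from 126 to 915 with palbociclib (median 294), so that the groups overlapped, through the high palbociclib libraries of H2052 and MSTO-211H. It fell by 1.64 (SE 0.19; adjusted p = 2.06e-05). E2F8 ran from 45 to 469 CP20M in DMSO (median 258) and from 9 to 41 with palbociclib (median 24), so all 11 palbociclib libraries lay below all 11 DMSO libraries. It was the only member with no overlap, against 0.635% of all genes tested, and it fell by 2.73 (SE 0.25; adjusted p = 4.07e-06). E2F2, E2F7 and E2F8 kept their calls in all 26 alternative analyses. MKI67 fell by 3.10 (SE 0.35; adjusted p = 1.74e-05) in the same pairs, and the part of proliferation in the changes of the E2F genes was not tested.

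In the resistant lines no member was called, and neither was any other gene (0% lower and 0% higher) by limma, although 1258 genes had an unadjusted p under 0.05. E2F1 stood at 1462 and 1137 CP20M in DMSO and at 1454 and 1323 with palbociclib in MPP89, and went from 4599 to 4901 in MeT-5A. E2F2 was 409 and 411, then 425 and 451 CP20M in MPP89, and 1355, then 1297 in MeT-5A. E2F8 ranged from 240 to 666 CP20M in DMSO and from 245 to 673 with palbociclib, and E2F7 from 726 to 1687 and from 759 to 1599. The fitted changes of the 8 members lay between -0.03 and 0.10. MPP89 alone also gave 0% lower and 0% higher by limma, with 918 genes at an unadjusted p under 0.05.

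The difference in response between the sensitive and the resistant lines was itself tested. It was called for E2F7, -1.64 ± 0.38 (SE; adjusted p = 0.0162), and for E2F8, -2.72 ± 0.50 (0.00545), 2 of 8 members against 5.62% of all genes called in this direction. E2F2 had a difference of -2.43 (adjusted p = 0.0658) and E2F5, with the possibly shared reads noted above, of -0.63 (0.0545). That of E2F1 was -1.12 (95% interval -2.38 to 0.15, adjusted p = 0.245). E2F4 (-0.32), E2F6 (-0.32) and E2F3 (-0.04) were not called either. Without the single MeT-5A pair neither difference was called (adjusted p = 0.0836 for E2F7 and 0.0506 for E2F8), without replicate 1 or replicate 2 of MPP89 that of E2F8 alone was, and with the 6 line means as units, an analysis chosen after seeing the data, neither was (0.0768 and 0.0617).

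**Figure D2:**
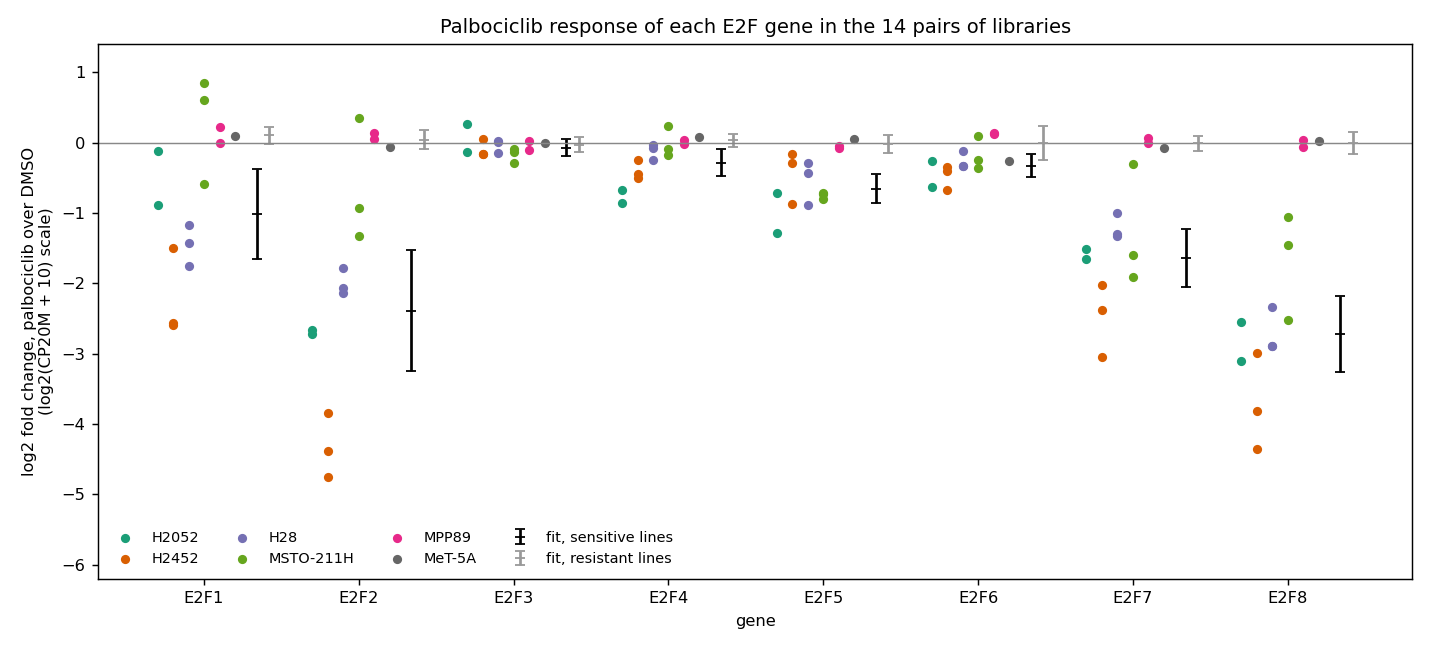
Log2 ratio of palbociclib over DMSO, on CP20M + 10, for each E2F gene in each of 14 experiments, by line. Black bars are the fit over the 11 pairs of the sensitive lines and grey bars that over the 3 pairs of the resistant lines, each with its 95% interval; E2F8 lies below 0 in all 11 sensitive pairs.

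The plot of responses by pair shows how unevenly the sensitive lines responded. E2F1, E2F2, E2F4, E2F7 and E2F8 differed among the 4 lines (F test, adjusted p = 0.00358, 0.000580, 0.00999, 0.0450 and 0.0171), 5 of 8 members against 37.1% of all genes. E2F3 (0.540), E2F5 (0.259) and E2F6 (0.425) were not called. Without H2052 replicate 1 only E2F1, E2F2 and E2F8 were called, and without H2452 replicate 1 only E2F1, E2F2 and E2F4.

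E2F1, E2F2, E2F7 and E2F8 had their largest fitted falls in H2452, with E2F2 at -4.33 ± 0.22, E2F8 at -3.72 ± 0.30, E2F7 at -2.49 ± 0.22 and E2F1 at -2.22 ± 0.27 (SE, 3 pairs), 4 of 8 members called lower against 10.8% of genes. E2F1 went there from 870 to 136, from 607 to 208 and from 903 to 144 CP20M, and E2F7 from 1148 to 130, from 698 to 126 and from 1233 to 294, with no overlap. In H28 the same members were called, E2F8 at -2.71 ± 0.17, E2F2 at -1.998 ± 0.13, E2F1 at -1.45 ± 0.14 and E2F7 at -1.21 ± 0.11 (4 of 8 against 7.34%). E2F2 stood in H28 at 404, 308 and 312 CP20M in DMSO and at 89, 82 and 63 with palbociclib.

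In H2052, E2F8 (-2.83 ± 0.21), E2F2 (-2.69 ± 0.14), E2F7 (-1.59 ± 0.08) and E2F4 (-0.77 ± 0.09) were called from 2 pairs, 4 of 8 against 13% of genes. E2F4 went from 1660 to 908 and from 1544 to 963 CP20M. Its call there was kept in 4 of 9 alternatives, in which its change ran from -0.78 to -0.41. E2F1 went from 1591 to 853 and from 721 to 660 CP20M and was not called (-0.51, adjusted p = 0.180).

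MSTO-211H stood apart. E2F1 went from 283 to 515 and from 125 to 196 CP20M in its first 2 experiments and from 495 to 327 in the third, a fitted change of 0.29 with a 95% interval from -0.65 to 1.22. E2F2, at 93, 37 and 103 CP20M in DMSO and 44, 50 and 35 with palbociclib, was not called (-0.64, adjusted p = 0.282), nor was E2F7 (-1.27, 0.0813). E2F8, from 82 to 34, from 45 to 10 and from 122 to 13 CP20M, was called at -1.68 ± 0.33 (adjusted p = 0.0477). So was E2F5, with the possibly shared reads noted above, at -0.75 ± 0.10 (adjusted p = 0.0354), which made 2 of 8 against 7.94%. Among the DMSO libraries of the line, that of replicate 2 had the lowest E2F1, E2F2 and E2F8. Its MKI67 was also the lowest of these DMSO libraries, 1555 CP20M against 3355 and 5593. The part of proliferation in these levels was not tested. Leaving out any pair of H28 or MSTO-211H, or replicate 1 or 3 of H2452, left 0 members and 0 genes called in that line.

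Washout was compared within the 12 libraries of the 10-day experiments, where each library serves in 2 of the 3 contrasts, so the contrasts share libraries. By the labels, no DMSO or palbociclib library had the added 48 hours in culture. Loss of the drug and the longer culture therefore cannot be told apart in these contrasts. Palbociclib against DMSO there called 5 of 8 members lower (13.3% of all genes), E2F8 at -3.08, E2F2 at -2.72, E2F7 at -1.69, E2F1 at -1.26 (a call kept in 6 of 12 alternatives) and E2F5 at -0.96. After 48 hours without drug, the atypical repressors E2F7 and E2F8 were called higher than with palbociclib, 2 of 8 members against 1.4% of all genes. E2F7 was the only member called lower than in DMSO, against 2.95% of all genes.

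E2F8 went from 101 CP20M in DMSO to 9 with palbociclib and 80 after washout in H2052, from 419 to 11 and 306 in H2452, from 309 to 33 and 65 in H28, and from 122 to 13 and 62 in MSTO-211H. It was higher after washout in 4 of 4 lines, by 2.15 ± 0.42 (SE; adjusted p = 0.0419), and its change against DMSO was -0.93 ± 0.42 (0.177). H28 regained 11.6% of the fall, whereas H2052 regained 77.2%, H2452 72.3% and MSTO-211H 45.0%. The H2052 DMSO library used here, replicate 2, had E2F8 at 101 CP20M, against 258 in replicate 1. E2F7 went from 1949 to 675 and 1377 CP20M in H2052, from 1233 to 294 and 996 in H2452, from 762 to 303 and 444 in H28, and from 1977 to 516 and 1023 in MSTO-211H. It rose by 1.06 ± 0.17 against palbociclib (adjusted p = 0.0217) and remained lower than in DMSO by 0.63 (SE 0.17; adjusted p = 0.0417), in 4 of 4 lines. Each of these calls depended on single lines: without H2052, H2452 or MSTO-211H neither gene was called higher, without H28 E2F7 alone was, and among these omissions only that of H2452 kept the call of E2F7 against DMSO.

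E2F2 went from 91 to 6 and 54 CP20M in H2052, from 396 to 5 and 239 in H2452, from 312 to 63 and 182 in H28, and from 103 to 35 and 95 in MSTO-211H. This change of 2.17 ± 0.47 against palbociclib missed the threshold (adjusted p = 0.0593), although washout lay above palbociclib in 4 of 4 lines. E2F1 stood after washout at 1318 CP20M in H2052, above both its DMSO (721) and palbociclib (660) libraries, at 900 in H2452 (903 and 144), at 626 in H28 (1068 and 309) and at 526 in MSTO-211H (495 and 327). The H2052 DMSO library used here, replicate 2, was the lower of this line for E2F1, at 721 CP20M against 1591 in replicate 1. Its MKI67 was lower too, at 4725 against 11235. The change of E2F1 against palbociclib was 1.30 ± 0.36 (adjusted p = 0.141) and against DMSO 0.05 (95% interval -0.77 to 0.86). E2F3 (0.07), E2F4 (0.10) and E2F6 (0.03) were not called against palbociclib, and with median-of-ratios and upper-quartile scaling these 3 values were below 0.

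E2F5 was the member that regained least in H2052 and H2452 among the 5 that fell, and not in H28 or MSTO-211H. It went from 806 to 324 and 457 CP20M in H2052, from 249 to 132 and 173 in H2452, from 598 to 318 and 402 in H28, and from 596 to 338 and 436 in MSTO-211H, regaining 27.6% to 38.0% of its fall. Its change of 0.38 ± 0.11 against palbociclib was not called (adjusted p = 0.146), and against DMSO it stood at -0.58 ± 0.11 (0.0133), just within the fold threshold and called with a pseudocount of 1. C8orf59 moved alike, by 0.36 against palbociclib and by -0.59 against DMSO, where it was called. The E2F5 values carry the limit of possibly shared reads here too. MKI67 rose by 2.99 ± 0.55 against palbociclib (adjusted p = 0.0348), and the part of proliferation in the E2F values after washout was not tested.

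**Figure D3:**
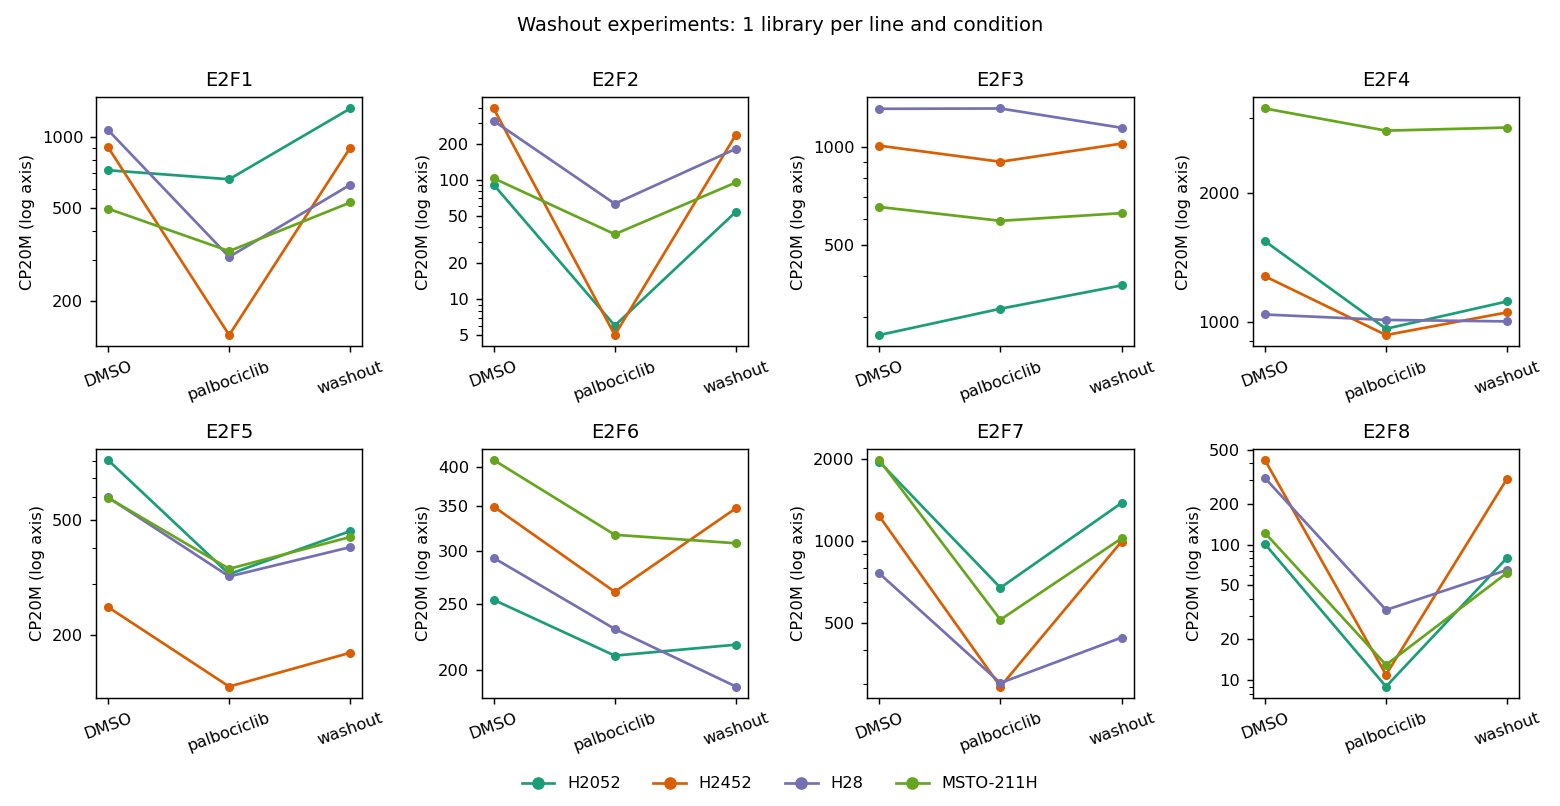
Level of each E2F gene in CP20M (log axis, scale set for each gene) in DMSO, with palbociclib and 48 hours after washout, 1 library per point, joined by line for the 4 sensitive lines. E2F8 is above its palbociclib level after washout in 4 of 4 lines, by least in H28 (33 to 65 CP20M).

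The plot of washout by line shows E2F1, E2F2, E2F5, E2F7 and E2F8 above their palbociclib levels after washout in 4 of 4 lines. The share of all genes higher in 4 of 4 lines was not counted. E2F4 was at 1544, 963 and 1116 CP20M in H2052 and at 1278, 931 and 1052 in H2452 in DMSO, with palbociclib and after washout. To set activators against repressors, the summed level of E2F1, E2F2 and E2F3 was divided by that of E2F4, E2F5 and E2F6, each per kilobase of exon, and the log2 of this ratio is given as a description with no test. In DMSO the mean log2 ratio was 2.15 in MeT-5A, 0.74 in H28, 0.55 in MPP89, 0.21 in H2452, -0.38 in H2052 and -2.06 in MSTO-211H. MSTO-211H was thus the line with the lowest ratio, from its low E2F1 and its high E2F4.

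With palbociclib the ratio moved by -0.77 ± 0.19 (SD, 3 pairs) in H2452 and by -0.57 ± 0.08 in H28, lower in each pair. It moved by 0.30 ± 0.46 (2 pairs, 1 in each direction) in H2052, where E2F4 was lower too, and by 0.10 ± 0.33 in MSTO-211H. The mean over the 11 sensitive pairs was -0.28 ± 0.51, a spread larger than the mean, with 8 pairs lower and 3 higher, and the 3 resistant pairs moved by 0.06 ± 0.03. With E2F7 and E2F8 counted among the repressors, the mean of the sensitive pairs was 0.03. The summed level of E2F7 and E2F8 went in H2452 from 197 to 297 CP20M per kilobase in DMSO to 26.5 to 49.4 with palbociclib. After washout the log2 ratio was 0.38 for H2052 (-0.90 in DMSO and -0.28 with palbociclib of the same experiment), 0.50 for H2452 (0.32 and -0.60), 0.31 for H28 (0.62 and -0.04) and -1.50 for MSTO-211H (-1.71 and -1.92). It thus stood above the palbociclib library in 4 of 4 lines and above the DMSO library in 3 of 4. The other H2052 DMSO library, replicate 1, was at 0.13.

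**Figure D4:**
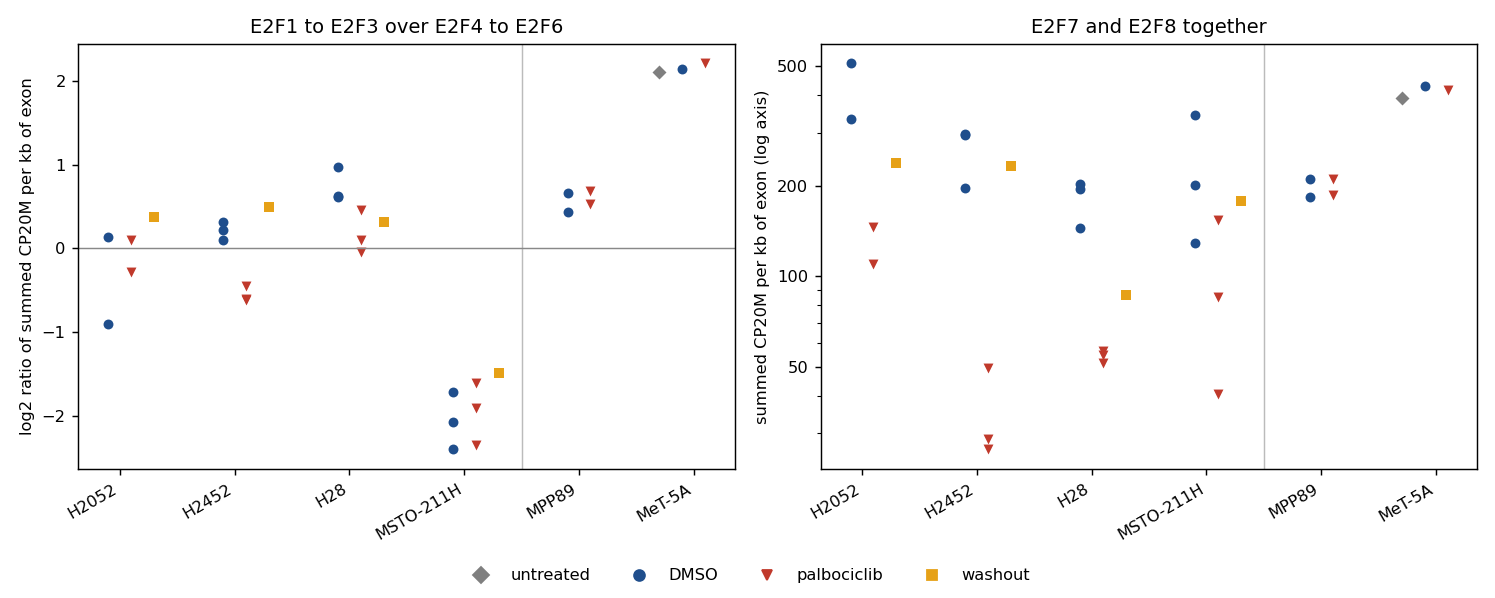
Log2 of the summed level of E2F1 to E2F3 over that of E2F4 to E2F6, in CP20M per kilobase of exon, for each library, by line and treatment. MeT-5A libraries are all at 2.11 or more and MSTO-211H libraries all at -1.50 or less, and only H2452 and H28 are lower with palbociclib in each experiment.

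The balance of activators over repressors by library makes the gap between lines visible beside the smaller changes within them. Genes that the E2F proteins are known to act on, and their partners, were described by lists. Of 31 G1/S targets of E2F, 30 were called lower with palbociclib in the sensitive lines (median -1.23, against -0.11 over all genes), led by MYBL2 (-2.94), a transcription factor of the MuvB complex, RRM2 (-2.69), a subunit of ribonucleotide reductase, and CCNA2 (-2.58), cyclin A2. CCNE1, cyclin E1, was the exception at 0.02. All 20 G2/M genes of the DREAM and MMB complexes were called lower (median -2.39), led by CDK1 (-3.12), the mitotic kinesin KIF20A (-2.98) and BIRC5, survivin (-2.93). In MSTO-211H alone, 4 of 31 G1/S targets were called lower and 1 higher (median -0.68), and 5 of 20 G2/M genes lower, against 7.94% of all genes. The median of the G2/M genes there, -2.11, lay further below 0 than in H28 (-1.76), where 19 of 20 were called.

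Genes of the partner complexes were called in part, and their counts are to be read against the 9.37% of all genes called lower. Of the DP partners, TFDP1 (-0.43) and TFDP2 (0.44) were tested and not called. Of 3 pocket protein genes, RBL1, which encodes p107 and is also in the G1/S list, was called lower (-1.14), and RBL2 (-0.33) and RB1 (-0.22) were not. Of 7 genes of MuvB and its partners, MYBL2, FOXM1 (-2.44) and LIN9 (-0.99) were called lower (median -0.47). Of 9 genes of the PRC1.6 complex in which E2F6 works, PCGF6 (-0.78) and CBX3 (-0.65) were called lower (median -0.22), and of 6 germ line genes held off through E2F6, 2 passed the filter and neither was called. Of 4 genes for the turnover of E2F proteins, CDC20 (-2.42) and CCNF, cyclin F (-1.87), were called lower (median -1.09). Of 7 apoptosis genes that E2F1 can activate, 4 were called lower (median -0.75), with TP73 (-1.11), BBC3 (-0.85) and PMAIP1 (-0.75) the largest.

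No gene of these lists was called higher over the sensitive lines, and none in either direction in the resistant lines. The difference in response between the classes was called lower for 18 of 31 G1/S targets and 19 of 20 G2/M genes, for 2 of 7 MuvB, 2 of 9 PRC1.6 and 2 of 4 turnover genes, for 1 of 7 apoptosis genes, and for no DP partner, pocket protein or germ line gene, against 5.62% of all genes. Without the single MeT-5A pair the genes called for this difference, in either direction, went from 1202 to 172 over all genes. After washout, where 1.4% of all genes were called higher and none without H2052, H2452 or MSTO-211H, 14 of 31 G1/S targets were called higher than with palbociclib (median 1.20), led by RRM2 (2.91), MYBL2 (2.55) and CCNA2 (2.38), and 19 of 20 G2/M genes were (median 2.29), led by KIF20A (3.03), CDK1 (2.93) and BIRC5 (2.85). FOXM1 (2.27) and CDC20 (2.28) were also called. Against DMSO, EZH2 alone, a Polycomb methyltransferase, was called lower among these lists (-0.88).

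The levels of E2F2 and E2F8 followed each other most closely within the family, with a Pearson r of 0.937 over the 33 libraries, which share lines, treatments and scaling. E2F1 had an r of 0.830 with E2F2 and 0.791 with E2F8, and E2F3 an r of -0.40 with E2F4. Over all genes tested, the 3 most like E2F1 were NEMP1 (0.963), DSN1 (0.960) and MCM8 (0.956), and those most like E2F2 were WDR76 (0.965), TICRR (0.964) and UBE2T (0.963). ITFG2 (0.971), OIP5 (0.970) and CDCA3 (0.965) were most like E2F8, and AC099850.3 (0.901), PRR11 (0.890) and UBE2S (0.887) most like E2F7. For the members that changed less the genes were UTP14C (0.953), MAD2L1BP (0.941) and CEP350 (0.936) for E2F3, HEATR3 (0.953), NOC4L (0.939) and ANXA10 (0.938) for E2F4, and KIF2A (0.879), FKBP5 (0.859) and ARL6IP4 (0.858) for E2F6. E2F5 was most like C8orf59 (0.952), with which it shares bases, LYPLA1 (0.937) and STX17 (0.929).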

How the data were processed

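RNA of cultured cells was sequenced as paired-end, directional libraries. According to the study's methods and the submitters' processing notes, the authors trimmed reads with Trimmomatic 0.36, aligned them to GRCh38 with STAR 2.5.3, counted them per gene with HTSeq 0.9.1 and tested them with DESeq2. The deposited values are a score per gene and library: counts scaled by the authors to 20000000 reads and rounded up to whole numbers (CP20M). They are not raw counts, so no count test was run. Columns summed to between 20007662 and 20021400. From the whole numbers that were skipped, the depth of 23 libraries was put at 12800000 to 19800000 reads (median 16400000); that of the other 10 is unknown, and no counting interval is given.

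The 17803 genes that reached 100 CP20M in 1 or more libraries were fitted with limma 3.58.1 (R 4.3.3, eBayes with trend) on log2(CP20M + 10), with experiment as a block, or line in the washout fits, and p-values were adjusted by Benjamini-Hochberg over all 17803 genes. The difference in response was an interaction term, and differences among lines were F tests called at an FDR under 0.05. The study's methods pair treated and control samples, and deviations of paired libraries correlated at r = 0.18 to 0.78 in each pair. Line levels were compared by an exact permutation test in Python 3.11.15. Some of the limma fits were also run on simulated data, in which a changed gene had the same change in every line that was given it. Responses that differ among lines were not simulated. Exon lengths came from GENCODE 44. Alternatives covered the pseudocount, scaling, filter, trend, block, length of treatment, lines and single replicates. All 8 members were described in every comparison, with the 3 genes most like each by Pearson r, and listed genes by their 3 called genes of largest change. The members and lists were chosen with earlier results of these data known.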

Additional observations from a re-analysis of the deposited data

Results flagged for a closer look

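The responses of E2F7 and E2F8 to palbociclib differed between the sensitive and the resistant lines in a test of the difference itself, by -1.64 for E2F7 and by -2.72 for E2F8 on the log2 scale. Both differences rested on 3 resistant pairs, of which MeT-5A gave 1, and neither was called without it.

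Among the 4 sensitive lines the response differed for E2F1 (adjusted p = 0.00358), E2F2 (0.000580), E2F4 (0.00999), E2F7 (0.0450) and E2F8 (0.0171) by limma's F test of the interaction. E2F1 and E2F2 were called lower in H2452 and H28 and not in MSTO-211H. In H2052 E2F2 was called lower and E2F1 was not. E2F4 was called lower in H2052 alone of these lines.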

How the results depend on the processing

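Of 1368 alternative values of single members, 1213 kept their direction and call, 98 lost a call, 12 gained one and 45 changed sign, the last among values near 0. Depth was estimated for 23 of 33 libraries only. The lowest levels, 5 CP20M for E2F2 and 9 for E2F8 with palbociclib, limit the precision of their folds. Where no cause is named, the cause was not tested.

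The study's pairing was kept as a block. In fits over several lines, leaving out the block also left out the line, except in the F test of response among lines. Differences in level between lines then added to the spread. With no replicate block, 3 members were called lower in the sensitive lines against 5 (E2F2, E2F7 and E2F8), 3 differed among those lines, 1 (E2F8) was called in the washout experiments, and 0 were called for the response difference, in MSTO-211H, or for washout against palbociclib or DMSO. Over all genes, no block left 939 called in the sensitive lines against 2663, 2612 against 6601 among lines, 139 against 3304 in the washout experiments and 0 against 1202, 250 and 1026 for the response difference and both washout contrasts.

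In the 9-day pairs alone, 3 members were called lower in the sensitive lines, from fewer samples. The response difference was called for 0 members without the MeT-5A pair (172 genes against 1202), and for 0 with line means as units (150 genes), an alternative chosen after seeing the data. With upper-quartile scaling 3 members differed among the sensitive lines. Washout against palbociclib, 2 members at first, was called for 1 with a pseudocount of 50, with median-of-ratios scaling, with no filter and without trend (E2F7 each time), and for 0 with upper-quartile scaling. Its count of all genes, 250, became 141 and 120 under these scalings. Washout against DMSO, 1 member, was called for 2 with a pseudocount of 1 and for 0 with either scaling, with no filter and without trend. For H2052, 4 members became 2 with no filter (284 genes against 3143) and 0 without trend (0 genes), and a pseudocount of 1 left 1185 genes. For MSTO-211H, 2 members became 1 with a pseudocount of 1, upper-quartile scaling, no filter (994 genes against 2464) or no trend, and 0 with median-of-ratios scaling. Over the sensitive lines a pseudocount of 50 called 1687 genes against 2663. With the filter of 100 CP20M applied within the libraries of MPP89, 4 genes were called against 0.

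Leaving out 1 replicate at a time, the members called ranged from 0 to 3 for the response difference, 3 to 5 among the sensitive lines, 0 to 1 for washout against palbociclib and against DMSO, 0 to 3 for H2452, and 0 each time for H28 and for MSTO-211H, where 1 pair fewer left 2 pairs. The number of members at the smallest permutation p was 0, with 1 under a pseudocount of 50 and 0 to 1 without single replicates. For H2052 and MPP89 such fits were not run, since no residual degrees of freedom remained.

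The following values changed sign. The mean change of the activator to repressor balance, -0.28, became 0.028 with E2F7 and E2F8 among the repressors. With median-of-ratios and upper-quartile scaling, in this order, E2F3 was 0.12 and 0.10 over the sensitive lines, 0.17 and 0.16 for the response difference, 0.22 and 0.21 for the washout experiments, 0.10 and 0.092 for H2452, 0.10 and 0.013 for H28, and -0.065 and -0.12 for washout against palbociclib, where E2F4 was -0.040 and -0.10 and E2F6 -0.10 and -0.16. E2F4 was 0.16 and 0.14 for MSTO-211H and -0.021 and -0.026 for MPP89, and E2F7 was -0.00075 and -0.0065 for MPP89. E2F4 was 0.012 for H28 with median-of-ratios scaling and -0.0011 over the resistant lines with upper-quartile scaling. Between resistant and sensitive control libraries, E2F5 was -0.083 and E2F6 -0.11 with median-of-ratios scaling, and E2F7 was 0.026 with the DMSO library of MeT-5A alone.

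Without single replicates, in the resistant lines E2F2 ranged from -0.0043 to 0.093, E2F3 from -0.057 to 0.010, E2F6 from -0.073 to 0.12, E2F7 from -0.045 to 0.025 and E2F8 from -0.023 to 0.022. E2F6 ranged from -0.086 to 0.14 for washout against palbociclib, and E2F1 from -0.23 to 0.31 and E2F3 from -0.078 to 0.15 for washout against DMSO. E2F3 ranged from -0.10 to 0.041 in the washout experiments and from -0.070 to 0.014 in H28, E2F4 from -0.14 to 0.065 in MSTO-211H, and E2F7 from -0.13 to 0.072 between resistant and sensitive control libraries.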
